A study of Homo sapiens with 27 samples.

Results

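The protein-coding genes of the cytosolic and the mitochondrial ribosome were followed across 2 cell lines of invasive lobular carcinoma and their long-term estrogen-deprived (LTED) variants. Members were chosen by symbol alone: symbols that start with RPL or RPS and a digit or the letter P, without the RPS6K kinases, formed the cytosolic group, and symbols that start with MRPL or MRPS and a digit formed the mitochondrial group. This gave 168 members of 60619 genes in the count table, 90 cytosolic and 78 mitochondrial. The cytosolic group held 76 core ribosomal proteins, 8 paralogs, 3 read-through genes, 2 Y-linked genes, which were counted and whose values are not given, and RPS19BP1, which encodes a protein that binds RPS19. By symbol, 55 cytosolic members were counted with the large subunit and 35 with the small one, against 49 and 29 mitochondrial members. Paralogs, read-through genes and RPS19BP1 were placed in this way too. Ribosomal proteins with other names (such as RPSA, FAU and RACK1, and 9 mitochondrial ones) fell outside the symbols and were kept as separate lists.

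Total RNA was sequenced from ER-positive MDA-MB-134VI (MM134) and SUM44PE cells, with 3 wells in each of 9 groups. MM134 parental cells and the SUM44 parental cultures had been kept without hormone for 3 days in charcoal-stripped serum. MM134 LTED-A, -B, -D and -E and SUM44 LTED-A and LTED-B were derived separately from each other by months of culture in charcoal-stripped serum. The study reported that every LTED clone grew faster than its parental line in that serum. LTED state and growth rate therefore cannot be told apart here. SUM44F is the SUM44PE culture moved to medium with FBS and is the parent of the SUM44 LTED variants, and the SUM44PE culture itself was sequenced as well. Each variant is 1 derived population and its replicates are wells, so the p-values measure the spread between wells of 1 culture and not between derivations. The question put to each comparison was whether the transcripts of both ribosomes differed between LTED and parental cells, between variants, and between the parental cultures.

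Ribosomes translate mRNA into protein. The cytosolic ribosome is assembled in the nucleolus from ribosomal RNA made by RNA polymerases I and III and from proteins whose mRNAs mostly start with a C followed by pyrimidines (the 5′ terminal oligopyrimidine or TOP motif), which couples their translation to mTOR signalling. The mitochondrial ribosome translates the few mRNAs encoded by mitochondrial DNA, all for oxidative phosphorylation, and its proteins are all encoded in the nucleus and imported. RNA counts do not measure translation or the number of ribosomes.

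Start sites are shown because the TOP motif separates the genes of both ribosomes and is not visible in a count table. RefSeq promoter windows (GRCh38.p14, from 250 bases before to 50 bases after the first listed start) were found for 61 of the 76 core cytosolic genes and 69 of the 78 mitochondrial genes. A C at the start followed by at least 4 pyrimidines was present in 67.2% of the cytosolic genes (41 genes), in 7.25% of the mitochondrial genes (5 genes) and in 4.68% of 15192 protein-coding genes. When the start was allowed to lie up to 3 bases away, the shares were 75.4%, 11.6% and 13.7%. The lines give the 30 bases from 10 before the start to 20 after it for members that recur in the results, 5′ to 3′ on the strand of the gene, with the pyrimidine run that begins at the start in capitals.
RPLP0, chr12:120201092-120201121 (minus strand): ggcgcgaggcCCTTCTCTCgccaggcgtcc
RPS12, chr6:132814559-132814588 (plus strand): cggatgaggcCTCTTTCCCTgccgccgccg
RPL27A, chr11:8682782-8682811 (plus strand): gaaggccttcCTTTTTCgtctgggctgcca
RPL35, chr9:124861938-124861967 (minus strand): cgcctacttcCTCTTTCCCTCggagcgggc
RPL21, chr13:27251548-27251577 (plus strand): ccgcctctttCCTTTCggccggaaccgcca
RPS26, chr12:56041908-56041937 (plus strand): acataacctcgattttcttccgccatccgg
MRPL24, chr1:156741069-156741098 (minus strand): ctgagggcccatgtgctgaaaatccgaagt
MRPL12, chr17:81703357-81703386 (plus strand): cggctagagcgtcatttccggctcgaatgc
MRPL57, chr13:21176648-21176677 (plus strand): agacgggtgcgcttacgccacggcgtctgc
Of the 6 cytosolic sequences, 5 carry the run and that of RPS26 does not, and none of the 3 mitochondrial ones does. Among other motifs searched on both strands of the 300 bases, CCGGAAG (bound by ETS factors) was in 34.4% of cytosolic, 42% of mitochondrial and 14.4% of all protein-coding promoters, and AAGATGGC (YY1) in 9.84%, 29.0% and 4.0%. GCGCATGC (NRF1) was in 4.92%, 8.70% and 4.27%, and CACGTG, the E-box that MYC proteins bind, in 4.92%, 8.70% and 8.91%. A match is a match of letters and not a measured site.

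The estimated counts summed to between 28583554 and 134882175 per library. In SUM44 LTED-A, replicates 2 and 3 were closer than sampling noise over all genes (chi-square per degree of freedom 0.312, against 2.35 to 58.1 in the other 26 pairs of replicates) and were averaged, so that this variant has 2 samples and the series 26. Luminal epithelial markers (EPCAM, KRT8, KRT18, KRT19, GATA3, FOXA1 and ESR1) were present in every library. They summed to between 4727 and 7824 CPM (counts scaled to library size, after TMM normalization). The sum was lower in MM134 parental cells (4727 to 4816) than in the MM134 LTED variants (5917 to 6685). In SUM44 the variants differed: the sum was lower in LTED-B (5761 to 5952) and higher in LTED-A (7791 to 7824) than in SUM44F (7426 to 7604). Single markers did not all follow the sums. Of the 7, 3, 2, 1 and 1 were upregulated and 2, 0, 0 and 1 downregulated in MM134 LTED-A, -B, -D and -E. Only KRT8 was upregulated in at least 3 MM134 variants. In SUM44, ESR1 and GATA3 were upregulated in both variants, and 1 marker was downregulated in LTED-B. PTPRC, CD3E, CD14, CDH5, KRT5 and KRT14 reached at most 0.157 to 2.70 CPM. Replicate 1 of SUM44F stood apart with 158 CPM in 10 markers of other cell types, of which COL1A1 had 89.0 and COL1A2 34.9, against 37.1 and 34.4 in replicates 2 and 3. The sum of these 10 markers was lower in LTED cells of both lines, at 23.5 to 29.5 CPM in MM134 parental cells against 11.1 to 18.6 in the variants, and 6.01 to 10.9 CPM in the SUM44 variants. Of the few that could be tested, COL1A1 was downregulated in the MM134 variants and PECAM1 in both SUM44 variants, while PECAM1 was upregulated in 3 MM134 variants, and the part of other cell types in the ribosomal changes was not tested. Replicate 3 of SUM44F had the lowest share of cytosolic ribosomal counts of its group, and the results against SUM44F are therefore also given without each of these libraries. In bulk RNA, fewer cells of a type and less RNA per cell cannot be told apart.

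Transcripts of the cytosolic ribosome took a larger share of the library in every LTED variant than in its parental culture. In MM134 parental cells they made up 4.37% ± 0.076 of all counts (SD, n = 3, 4.28% to 4.42%). The share was 5.0% ± 0.038 in LTED-A, 5.30% ± 0.118 in LTED-B, 4.88% ± 0.055 in LTED-D and 4.57% ± 0.015 in LTED-E, n = 3 each. No library of these 4 variants overlapped the parental range. In SUM44F the share was 3.87% ± 0.183 (n = 3, 3.66% to 4.01%), in SUM44 LTED-A 4.48% ± 0.315 (n = 2, 4.26% and 4.70%), and in SUM44 LTED-B 5.25% ± 0.074 (n = 3). The groups did not overlap here either, and the SUM44PE culture, at 4.28% ± 0.086, lay above SUM44F and touched the range of LTED-A.

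Mitochondrial ribosomal transcripts were more than 10 times less abundant and did not follow the same order. Their share was 0.337% in MM134 parental cells, 0.361% in LTED-A, 0.360% in LTED-D, 0.358% in LTED-E and 0.317% in LTED-B, the only variant below its parent. In SUM44 it was 0.311% in SUM44F, 0.339% in LTED-A, 0.376% in LTED-B and 0.276% in SUM44PE. The ratio of both sums needs no scaling of libraries. It was 13 ± 0.28 cytosolic counts per mitochondrial count in MM134 parental cells and 16.7 ± 0.15 in MM134 LTED-B, a log2 difference in the mitochondrial to cytosolic ratio of -0.37. The same difference was -0.09 in LTED-A (-0.035 with a mean of log2 values over members in place of the sum) and -0.07 in LTED-D, both without overlap of the summed ratios, and 0.02 in LTED-E, where libraries overlapped the parental ones. For SUM44 it was -0.16 in LTED-B, without overlap, and -0.08 in LTED-A, with overlap, against SUM44F at 12.5 ± 0.90 (11.4 to 13.2). SUM44PE had the second highest ratio of the series, at 15.5.

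**Figure D1:**
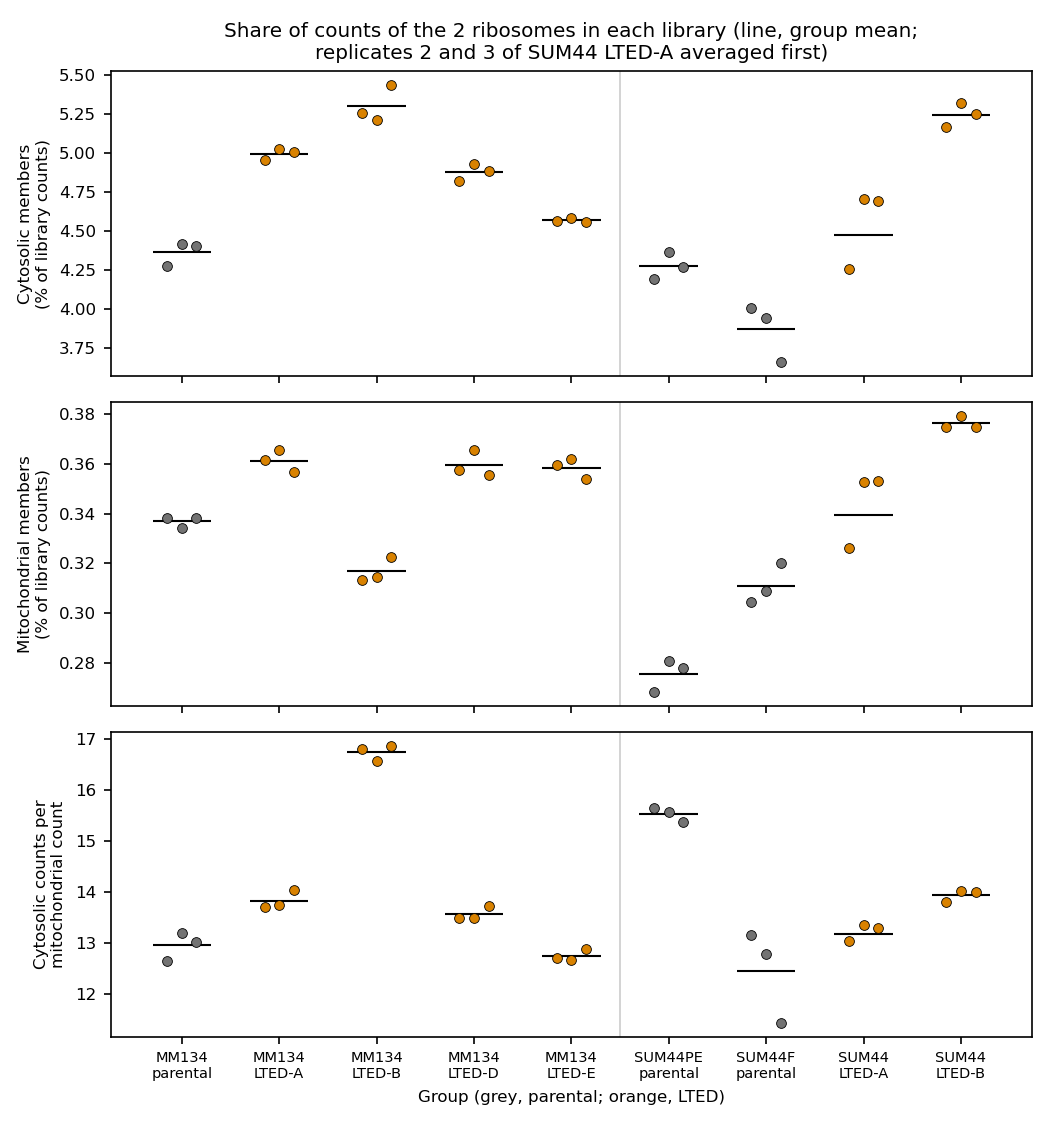
Share of library counts (%, y axes) taken by cytosolic and by mitochondrial ribosomal genes and their ratio, for the 27 libraries (points) in 9 groups, with the group mean as a line (replicates 2 and 3 of SUM44 LTED-A averaged first). The cytosolic share runs from 3.87% in SUM44F to 5.30% in MM134 LTED-B, the variant in which the ratio reaches 16.7.

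Most members were slightly higher in LTED cells, and few passed the thresholds for differentially expressed (DE) genes, a change above 1.5-fold at adjusted p under 0.001 in edgeR's quasi-likelihood test. Of the 90 cytosolic members 87 were tested, and all 78 mitochondrial ones. Among the others, RPL10L, a retrogene used mainly in testis, had at most 9.01 counts in any library. Cytosolic medians of the log2 fold change were 0.33, 0.40, 0.34 and 0.15 in MM134 LTED-A, -B, -D and -E and 0.34 and 0.59 in SUM44 LTED-A and LTED-B. Over all genes tested the medians ranged from -0.09 to 0.02. Mitochondrial medians were 0.26, 0.08, 0.22 and 0.21 in the MM134 variants and 0.22 and 0.44 in the SUM44 variants. Between 69 and 85 of 87 cytosolic members, and between 51 and 73 of 78 mitochondrial members, lay above 0 in each variant, where 44.7% to 51.9% of all genes did. The medians kept their sign in every alternative run, and ranged from 0.18 to 0.51 (cytosolic) and 0.11 to 0.38 (mitochondrial) in SUM44 LTED-A, the widest of the 6.

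Without a minimum fold change, the calls of the cytosolic members went almost only upward. At an adjusted p under 0.05, 75 of 87 were higher and 1 lower in MM134 LTED-A, where 26.9% of all genes tested were higher and 26.3% lower. In LTED-B 80 were higher and 0 lower (all genes 24.9% and 23.5%), in LTED-D 73 and 1 (26.8% and 24.6%), and in LTED-E 55 and 7 (25.8% and 25.2%). In SUM44 LTED-A 38 were higher and 2 lower (17.8% and 18.3%), and in SUM44 LTED-B 75 and 0 (22.8% and 23.1%). The mitochondrial members were split further: 61 higher and 8 lower of 78 in MM134 LTED-A, 33 and 15 in LTED-B, 51 and 3 in LTED-D, 53 and 9 in LTED-E, 30 and 2 in SUM44 LTED-A, and 55 and 1 in SUM44 LTED-B. These shares sit beside a difference in level: in the MM134 libraries the median member had 488 CPM (cytosolic) or 35.6 CPM (mitochondrial) and the median gene tested 3.19 CPM, so that smaller changes could pass the test among the members.

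At the DE thresholds the picture was narrower. The cytosolic members held 5 upregulated genes in MM134 LTED-A (5.75% of 87, all genes 10.5%), 12 in LTED-B (13.8%, all genes 8.11%), 8 in LTED-D (9.20%, all genes 9.63%) and 3 in LTED-E (3.45%, all genes 8.71%). Only LTED-B was above the share of all genes. The mitochondrial members held 12 (15.4% of 78), 2 (2.56%), 11 (14.1%) and 6 (7.69%), above the share of all genes in LTED-A and LTED-D. In SUM44 LTED-A, 3 cytosolic (3.45%) and 6 mitochondrial members (7.69%) were upregulated, with 6.39% of all genes, and in SUM44 LTED-B 20 (23.0%) and 23 (29.5%), with 8.69% of all genes. No member of either ribosome was DE downward in any variant, where 9.82%, 7.75%, 7.95% and 10.3% of all genes were downregulated in MM134 LTED-A, -B, -D and -E, and 7.28% and 8.57% in SUM44 LTED-A and LTED-B. In SUM44 LTED-B the median was 0.61 over the cytosolic large subunit (10 of 54 upregulated) and 0.59 over the small one (10 of 33), with subunits by symbol. The read-through gene RPS10-NUDT3 was among the small subunit calls. The mitochondrial subunits had medians of 0.49 (17 of 49) and 0.34 (6 of 29).

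The counts in SUM44 depended on single libraries, while the direction did not. Without SUM44F replicate 1, the library with collagen transcripts, the cytosolic and mitochondrial medians were 0.40 and 0.27 in LTED-A, with 1 and 4 upregulated members, and 0.64 and 0.47 in LTED-B, with 13 and 23. Without SUM44F replicate 3 they were 0.27 and 0.21 in LTED-A, with 2 and 3, and 0.50 and 0.38 in LTED-B, with 15 and 20. The 20 cytosolic members of LTED-B became 9 without SUM44F replicate 2, 6, 4 and 4 without LTED-B replicates 1, 2 and 3, and 31 and 34 without LTED-A replicate 1 or the mean of its replicates 2 and 3. The 3 cytosolic members of LTED-A became 1 without SUM44F replicate 1 or any LTED-B replicate and 8 without LTED-A replicate 1. Its 6 mitochondrial members became 2 without SUM44F replicate 2 or any LTED-B replicate, 3 without SUM44F replicate 3, 1 without the mean of LTED-A replicates 2 and 3, and 12 without LTED-A replicate 1.

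**Figure D2:**
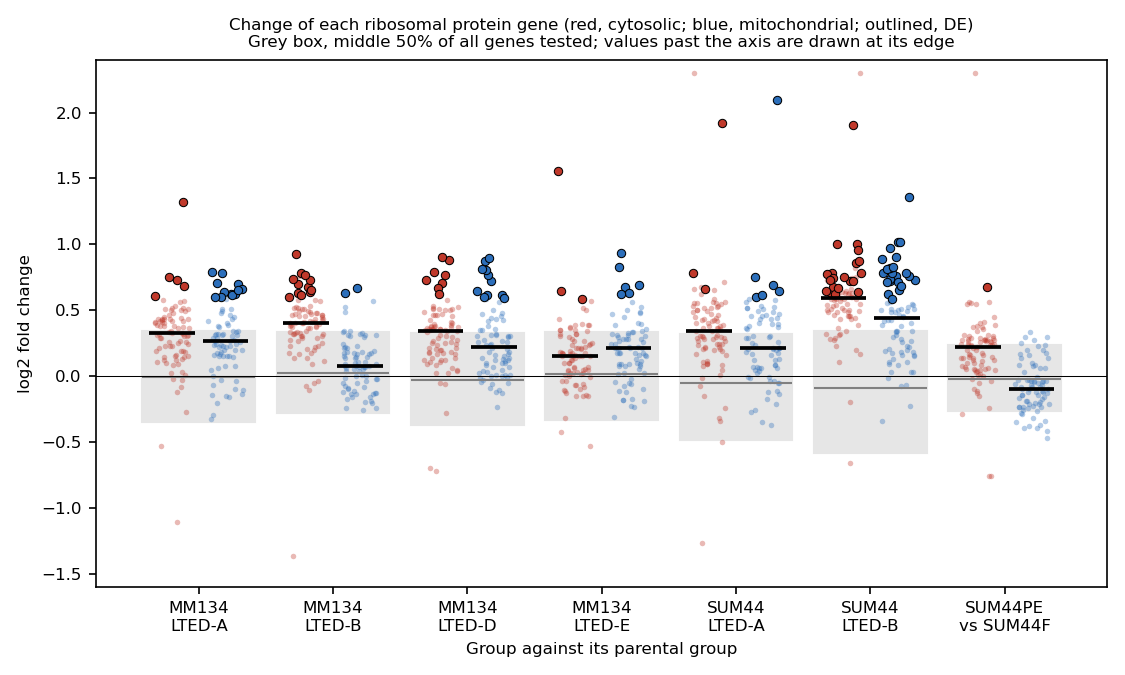
Log2 fold change (y axis) of each tested cytosolic and mitochondrial member (points, 87 and 78) in the comparisons of the study, with the member median as a line and the middle 50% of all genes tested as a grey box; values past the axis are drawn at its edge. Cytosolic medians lie above 0 in all 6 LTED variants, from 0.15 in MM134 LTED-E to 0.59 in SUM44 LTED-B.

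In MM134, 3 cytosolic and 4 mitochondrial members were upregulated in at least 3 of the 4 variants, where 6.66% of all genes were upregulated and 6.83% downregulated that often, and 0 members were downregulated. The variants share the 3 parental libraries, so their changes are not independent of each other. RPL8 (ENSG00000161016, chr8:144789765-144792587), a protein of the large subunit near the peptidyl transferase centre, had 648, 681 and 658 CPM in the parental wells. It had 1055, 1113 and 1182 CPM in LTED-A, 1240, 1289 and 1236 in LTED-B, 1068, 1035 and 1108 in LTED-D, and 972, 960 and 1028 in LTED-E. Every LTED well was above every parental well. The log2 fold changes were 0.75 ± 0.04 (SE), 0.93 ± 0.04, 0.71 ± 0.04 and 0.59 ± 0.04, with edgeR adjusted p between 2.76e-13 and 1.65e-10. RPL27A (ENSG00000166441, chr11:8682788-8714759), another large subunit protein, had 540, 565 and 544 CPM in parental wells. In the variants it had 880, 922 and 941 (LTED-A), 898, 931 and 974 (LTED-B), 852, 817 and 849 (LTED-D) and 852, 850 and 854 CPM (LTED-E). The groups did not overlap, and the log2 fold changes were 0.73, 0.77, 0.62 and 0.64 (edgeR adjusted p 1.92e-13 to 3.85e-12). RPS12, the third of these genes, is described on its own further on.

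The 4 mitochondrial members shared by the MM134 variants all belong to the large subunit. MRPL16 (chr11:59806140-59810778), the relative of bacterial uL16, had 30.9, 30.3 and 30.8 CPM in parental wells. It had 49.5, 51.0 and 50.2 CPM in LTED-A, 45.5, 49.8 and 50.6 in LTED-B, 50.9, 48.8 and 55.4 in LTED-D, and 58.5, 58.0 and 58.1 in LTED-E. All LTED wells were above the parental ones, with log2 fold changes of 0.71, 0.67, 0.77 and 0.94 (edgeR adjusted p 1.38e-12 to 2.9e-10). MRPL24 (chr1:156737303-156741590), the relative of bacterial uL24, had 29.6, 29.0 and 29.3 CPM in parental wells and between 44 and 47.9 in the 12 LTED wells. Its 4 changes were nearly equal, at 0.65, 0.63, 0.65 and 0.69 (edgeR adjusted p 1.97e-11 to 1.06e-10). MRPL12 (chr17:81703367-81707517), a stalk protein of the mitochondrial ribosome that also binds the mitochondrial RNA polymerase, had 16.4, 16.8 and 14.3 CPM in parental wells. LTED-A had 25, 27.7 and 30.3, LTED-B 22.5, 22.9 and 25.1, LTED-D 30.3, 23.8 and 28.3, and LTED-E 26.5, 23.7 and 25.2 CPM. No LTED well overlapped the parental ones, and the log2 fold change was 0.79, 0.80 and 0.67 in LTED-A, LTED-D and LTED-E and 0.57 in LTED-B, under the fold threshold (edgeR adjusted p 2.29e-05). MRPL37 (chr1:54184041-54225464), a protein with no bacterial counterpart, had 61.6, 61.4 and 61.1 CPM in parental wells. It had 94.0, 99.0 and 99.1 CPM in LTED-A, 93.1, 92.6 and 94.2 in LTED-D, 92.0, 95.6 and 93.6 in LTED-E, and only 67.1, 67.6 and 71.5 in LTED-B. LTED-B lay between the parental wells and the other 3 variants, and its log2 fold change was 0.17 (edgeR adjusted p 0.000144) against 0.66, 0.62 and 0.62.

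In SUM44, 2 cytosolic and 5 mitochondrial members were upregulated in both variants and 0 were downregulated, where 3.87% of all genes were upregulated and 4.75% downregulated in both. These calls rest on few libraries. The 2 cytosolic members became 0 without SUM44F replicate 1, without the mean of LTED-A replicates 2 and 3, or without any LTED-B replicate, 1 without SUM44F replicate 2 or 3, and 4 without LTED-A replicate 1. The 5 mitochondrial members became 1 or 2 without SUM44F replicate 2 or 3, the mean of LTED-A replicates 2 and 3, or any LTED-B replicate. RPS2 (chr16:1962058-1964841), a small subunit protein at the entry of the mRNA channel, had 789, 810 and 635 CPM in SUM44F, 1214 and 1343 in LTED-A, and 1438, 1508 and 1542 in LTED-B. Its log2 fold changes were 0.78 ± 0.13 and 1.01 ± 0.12 (edgeR adjusted p 0.000866 and 6.17e-05), and in the MM134 variants 0.57, 0.70, 0.90 and 0.50. RPL35 (chr9:124857880-124861981), a large subunit protein at the exit of the nascent chain, had 173, 171 and 153 CPM in SUM44F, 236 and 287 in LTED-A, and 266, 272 and 294 in LTED-B. Neither gene overlapped between SUM44F and LTED, and the changes of RPL35 were 0.66 ± 0.10 and 0.74 ± 0.09 (edgeR adjusted p 0.000527 and 9.23e-05). Pseudogene copies held 6.27% of the counts of RPS2 and its copies together, so the split between them is uncertain.

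The mitochondrial members shared by both SUM44 variants were MRPS2 of the small subunit and MRPL17, MRPL22, MRPL48 and MRPL57 of the large one. MRPS2, the relative of bacterial uS2, had 19.3, 18.7 and 14.4 CPM in SUM44F, 28.8 and 29.7 in LTED-A, and 30.1, 33.4 and 33.3 in LTED-B. Its log2 fold changes were 0.75 ± 0.12 and 0.89 ± 0.11 (edgeR adjusted p 0.000602 and 7.3e-05). MRPL17 (chr11:6680385-6683340) had 45.5, 43.7 and 39.8 CPM in SUM44F, 64.1 and 74.0 in LTED-A, and 74.2, 71.6 and 72.3 in LTED-B. All LTED samples lay above SUM44F, by 0.69 ± 0.08 and 0.76 ± 0.08 on the log2 scale (edgeR adjusted p 8.69e-05 and 1.68e-05), while the MM134 variants had values of 0.15, 0.07, 0.14 and 0.28. MRPL22 had 14.6, 14.7 and 13.7 CPM in SUM44F, 20.1 and 24.7 in LTED-A, and 24.4, 24.4 and 24.0 in LTED-B, and MRPL48 had 42.8, 43.6 and 39.3, 56.6 and 70.2, and 69.0, 70.7 and 69.4. Neither overlapped between SUM44F and LTED. Their log2 fold changes were 0.65 ± 0.10 and 0.76 ± 0.09 for MRPL22 and 0.60 ± 0.09 and 0.73 ± 0.08 for MRPL48 (edgeR adjusted p 4.33e-05 to 0.000449).

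Calls at an adjusted p under 0.05 were shared more widely. Of 87 cytosolic members, 54 were higher in all 4 MM134 variants (13.8% of all genes), 34 in both SUM44 variants (12.4%), and 22 in all 6 variants (3.43%). Of 78 mitochondrial members the numbers were 28, 25 and 11. The 22 cytosolic members included RPL7, RPL7A, RPL8, RPL12, RPL27A, RPL35, RPS2, RPS3, RPS6, RPS19 and RPS24, and the 11 mitochondrial ones were MRPL3, MRPL4, MRPL24, MRPL37, MRPL38, MRPS2, MRPS9, MRPS15, MRPS18B, MRPS26 and MRPS35. RPL39L had a log2 fold change below 0 in all 6 variants, the only member to do so, at levels of 0.12 to 0.91 CPM and with no adjusted p under 0.05.

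**Figure D3:**
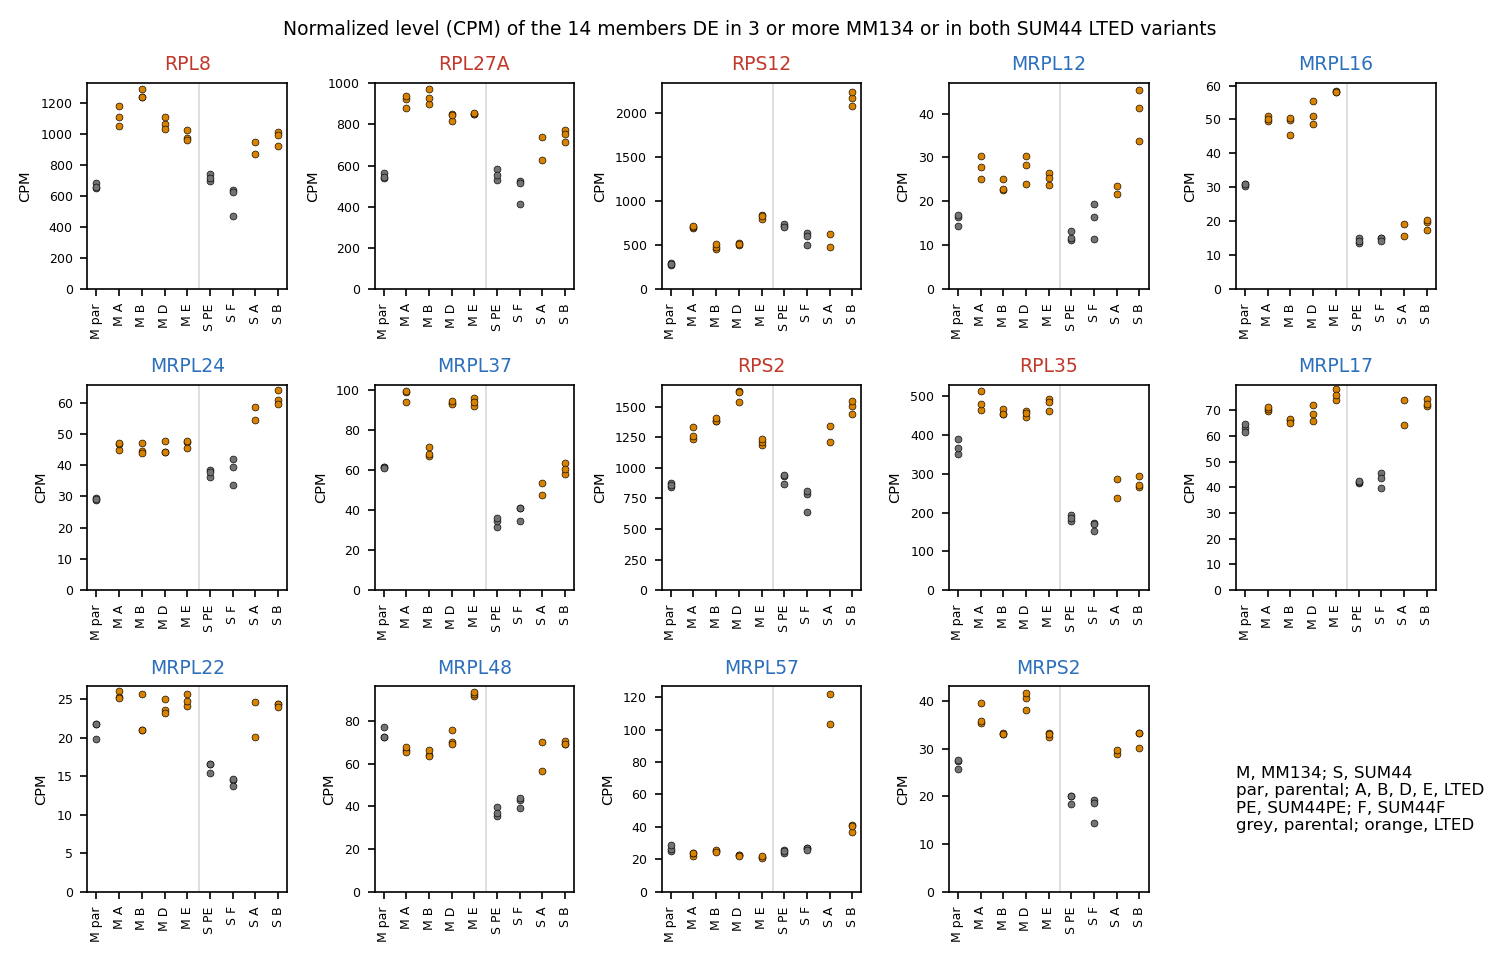
CPM (linear y axes) of the 14 members that were upregulated in at least 3 MM134 variants or in both SUM44 variants, in each of the 26 samples, by group. RPL8 runs from 648 to 681 CPM in MM134 parental wells and from 960 to 1289 in the LTED wells.

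RPS12 (ENSG00000112306, chr6:132814569-132817564, plus strand), a small subunit protein, ranged from 268 to 2246 CPM over the samples. MM134 parental wells had 268, 287 and 285 CPM. LTED-A had 695, 707 and 710, LTED-B 456, 477 and 504, LTED-D 498, 524 and 514, and LTED-E 834, 796 and 828. The 4 variants lay above the parental wells and apart from each other, except that LTED-B and LTED-D overlapped. The log2 fold changes were 1.32 ± 0.03, 0.78, 0.88 and 1.56 ± 0.04 (edgeR adjusted p 2.93e-17 to 9.77e-13). SUM44F had 633, 602 and 503 CPM, LTED-A 470 and 626, LTED-B 2086, 2168 and 2246, and SUM44PE 718, 733 and 706. LTED-A overlapped SUM44F (log2 fold change -0.08 ± 0.15, adjusted p 0.734) and LTED-B did not (1.90 ± 0.14, adjusted p 1.81e-06). Per length of the longest coding transcript (on the scale of TPM), RPS12 was the most abundant cytosolic core gene of SUM44 LTED-B, at 11903.

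SLC18B1, which encodes a vesicular polyamine transporter, is the neighbour of RPS12 on the opposite strand (chr6:132769370-132813339), with 1230 bases between both starts. It was chosen after its values were seen. It had 0 counts in all 3 MM134 parental wells, and LTED-A had 24.0 to 24.7 CPM, LTED-B 0.348 to 0.378, LTED-D 5.83 to 6.97 and LTED-E 6.94 to 8.26. The order of the variants was not that of RPS12, which was highest in LTED-E. In SUM44 it had 35.5 to 35.7 CPM in SUM44F, 11.2 and 13.2 in LTED-A (log2 fold change -1.53, edgeR adjusted p 3.41e-07) and 63.0 to 65.7 in LTED-B (0.85, adjusted p 5.37e-06). Further neighbours on chromosome 6 had a median log2 fold change of 0.22 to 0.26 in the MM134 variants, -0.39 in SUM44 LTED-A and 0.93 in SUM44 LTED-B. The number of gene copies was not measured.

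**Figure D4:**
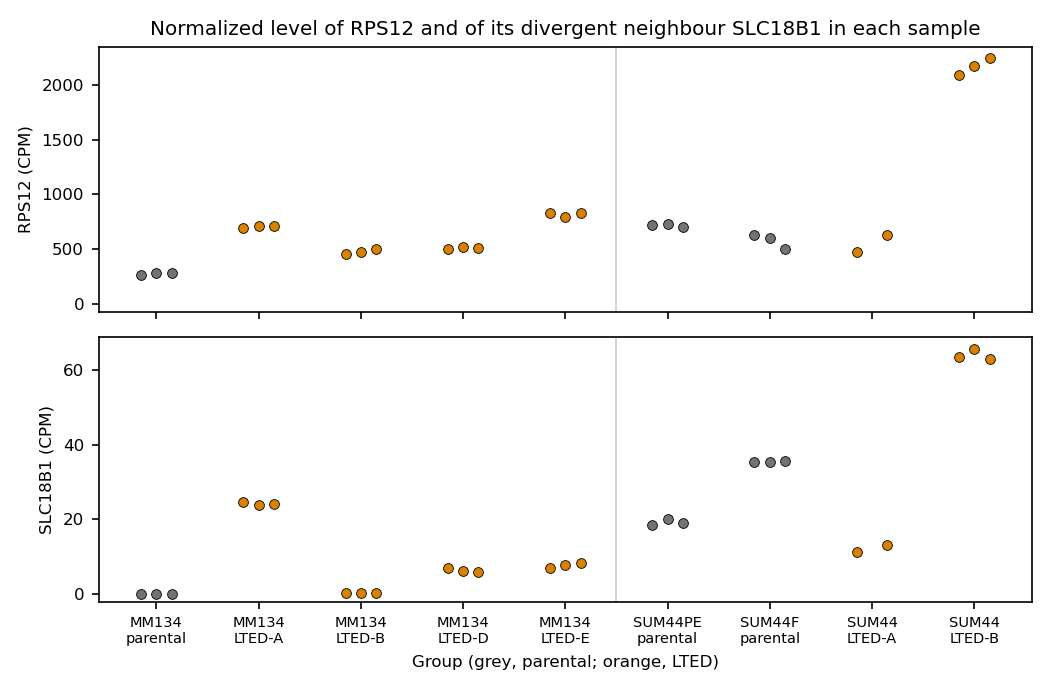
RPS12 and SLC18B1 (CPM, y axes) in the 26 samples by group. SLC18B1 is at 0 in MM134 parental cells, where RPS12 has 268 to 287 CPM, and both are highest in SUM44 LTED-B.

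The stalk proteins RPLP0, RPLP1 and RPLP2 recruit the GTPases of translation to the large subunit, and RPLP0 is also the reference gene of the qPCR in the study. That qPCR, as for SREBP1a, used parental cells grown in FBS, a condition that is not among these libraries. RPLP0 had 1080, 1087 and 1130 CPM in MM134 parental wells, and LTED-A had 1443 to 1540, LTED-B 1679 to 1739, LTED-D 1684 to 1763 and LTED-E 1208 to 1252. All 4 variants lay above the parental wells, by 0.43, 0.64, 0.67 and 0.17 on the log2 scale, and were DE in LTED-B and LTED-D (edgeR adjusted p 1.5e-12 and 6.57e-13). In SUM44 it had 1356 to 1709 CPM in SUM44F, 1770 and 2067 in LTED-A (log2 fold change 0.28, adjusted p 0.165) and 2413 to 2552 in LTED-B (0.65 ± 0.13, adjusted p 0.00226). RPLP1 had 265 to 290 CPM in MM134 parental wells, and LTED-A had 341 to 395, LTED-B 435 to 485, LTED-D 338 to 381 and LTED-E 268 to 291. LTED-E overlapped the parental wells (log2 fold change 0.02, adjusted p 0.768), and LTED-B was DE (0.73, adjusted p 1.06e-09), as was SUM44 LTED-B (0.64, adjusted p 0.000178). RPLP2 had log2 fold changes of 0.37, 0.46, 0.52 and 0.34 in MM134 and of 0.36 (adjusted p 0.053) and 0.62 (adjusted p 0.00153) in SUM44, and was DE in 0 variants.

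None of the paralogs was DE in any LTED variant by edgeR, and at an adjusted p under 0.05 between 2 and 4 of the 7 tested were called per variant. Their medians over the 7 tested were -0.09, -0.04, 0.11 and 0.05 in MM134 LTED-A, -B, -D and -E and -0.16 and 0.20 in SUM44 LTED-A and LTED-B. RPL7L1, whose yeast relative acts in ribosome assembly, had log2 fold changes of 0.37, 0.22, 0.37 and 0.28 in MM134 and RPL7 had 0.68, 0.73, 0.58 and 0.57. RPS27L, a p53 target, had -0.28, -0.04, -0.28 and -0.15, and RPS27 had 0.44, 0.49, 0.27 and 0.15. RPL36AL had 0.23, 0.17, 0.11 and 0.35 and RPL36A 0.41, 0.51, 0.51 and 0.32, though pseudogenes hold 23.5% of the counts of RPL36A and its copies. RPL26L1 had -0.09, -0.08, 0.18 and 0.05 and RPL26 0.21, 0.41, 0.20 and 0.00. Only RPL22L1 was above its relative in all 4 MM134 variants, at 0.23, 0.22, 0.12 and 0.37 against -0.03, 0.09, 0.04 and -0.12 for RPL22. RPL3L, the striated muscle form of RPL3, had 0.5 to 1.3 CPM (20.6 to 90.7 counts), and RPL39L, named above, 4.64 to 42.5 counts. Differences between a paralog and its relative were not tested. Of the read-through genes, RPL17-C18orf32 (0 to 445 counts) and RPL36A-HNRNPH2 (0 to 74.9 counts) were listed at 0 in some libraries, and RPS10-NUDT3 (426 to 4479 counts) was DE in SUM44 LTED-B. Their counts depend on how reads were divided with RPL17, RPL36A and RPS10.

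Levels were compared between genes on the scale of TPM: counts per kb of the longest protein-coding transcript, rescaled to the same total over protein-coding genes in each library. In MM134 parental cells the median core cytosolic gene stood at 1106 and the median mitochondrial gene at 73.7, and in SUM44F at 974 and 61.0. The cytosolic genes together took 11.7% of this total in MM134 parental cells and the mitochondrial genes 0.722%. The range was wide within each ribosome, from 115 (RPL28) to 4795 (RPL41) for cytosolic genes and from 14.4 (MRPL23) to 334 (MRPL51) for mitochondrial ones in MM134 parental cells, although each complex holds mostly 1 copy of each protein. The transcript chosen moves single genes: with the MANE Select transcript in place of the longest, a choice made after seeing the data, RPS29 in MM134 parental cells went from 122 to 2622 (length 7062 and 295 bases) and the cytosolic median to 1680.

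Neighbouring genes were used to see whether a member moved alone. The neighbour median is the median log2 fold change of up to 20 tested genes with at least 5 CPM on each side on the chromosome. How many of all DE genes reach the 50% mark used below was not computed. The counts therefore do not tell whether the members differ from other DE genes in this. In MM134 LTED-A, LTED-B and LTED-E, 0 of the upregulated members had a neighbour median of at least 50% of their own change. For RPL8 it was between -0.17 and 0.03 in the 4 variants, for RPL27A between 0.17 and 0.28, for MRPL16 between 0.19 and 0.31, for MRPL24 between 0.00 and 0.07, for MRPL37 between -0.02 and 0.03, and for MRPL12 between -0.06 and 0.13. In LTED-D, RPS15A and RPS2 of 8 cytosolic and MRPL51, MRPS28 and MRPS34 of 11 mitochondrial members moved with their neighbours in this sense. RPS2, RPS15A, MRPS34 and MRPL28 all lie on chromosome 16, and for RPS2 the change was 0.90 and the neighbour median 0.49.

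In SUM44 LTED-A, RPL21 and RPS2 of 3 cytosolic and MRPL57 of 6 mitochondrial members had neighbour medians of at least 50% of their own change. For RPS2, one of the cytosolic members called in both SUM44 variants, the neighbour median was 0.41 in LTED-A and 0.40 in LTED-B. RPL21 (chr13:27251362-27256691) had 218, 213 and 171 CPM in SUM44F, 681 and 838 in LTED-A, and 233, 255 and 246 in LTED-B. MRPL57 (chr13:21176658-21179084), on the same chromosome, had 26.8, 26.8 and 25.6 CPM in SUM44F, 103.6 and 121.8 in LTED-A, and 37.0, 41.2 and 40.8 in LTED-B. Both were far higher in LTED-A than in any other group, with log2 fold changes of 1.92 ± 0.13 (RPL21, edgeR adjusted p 1.02e-06) and 2.10 ± 0.08 (MRPL57, adjusted p 3.12e-08), and their neighbours had medians of 1.79 and 1.71 there, against 0.15 and 0.16 in LTED-B. RPL21 has 133 pseudogenes, which held 31.8% of the counts of the gene and its copies, so its level is uncertain. In SUM44 LTED-B, 5 of 20 cytosolic members (RPL36, RPL38, RPS7, RPS9 and RPS19) and 7 of 23 mitochondrial members (MRPL11, MRPL12, MRPL38, MRPL58, MRPS7, MRPS23 and MRPS34) had neighbour medians of at least 50% of their own change. Of these, 6 lie on chromosome 17, with changes of 1.36 for MRPL12 (neighbours 0.76), 1.02 for MRPL58 (0.69), 1.00 for RPL38 (0.65), 0.97 for MRPS23 (0.55), 0.83 for MRPL38 (0.56) and 0.78 for MRPS7 (0.63). By contrast, RPL35, MRPL17 and MRPL22 had neighbour medians between -0.04 and 0.08 in both SUM44 variants, MRPL48 0.05 and 0.22, and MRPS2 0.25 and 0.29. The part of copy number in these changes was not tested.

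**Figure D5:**
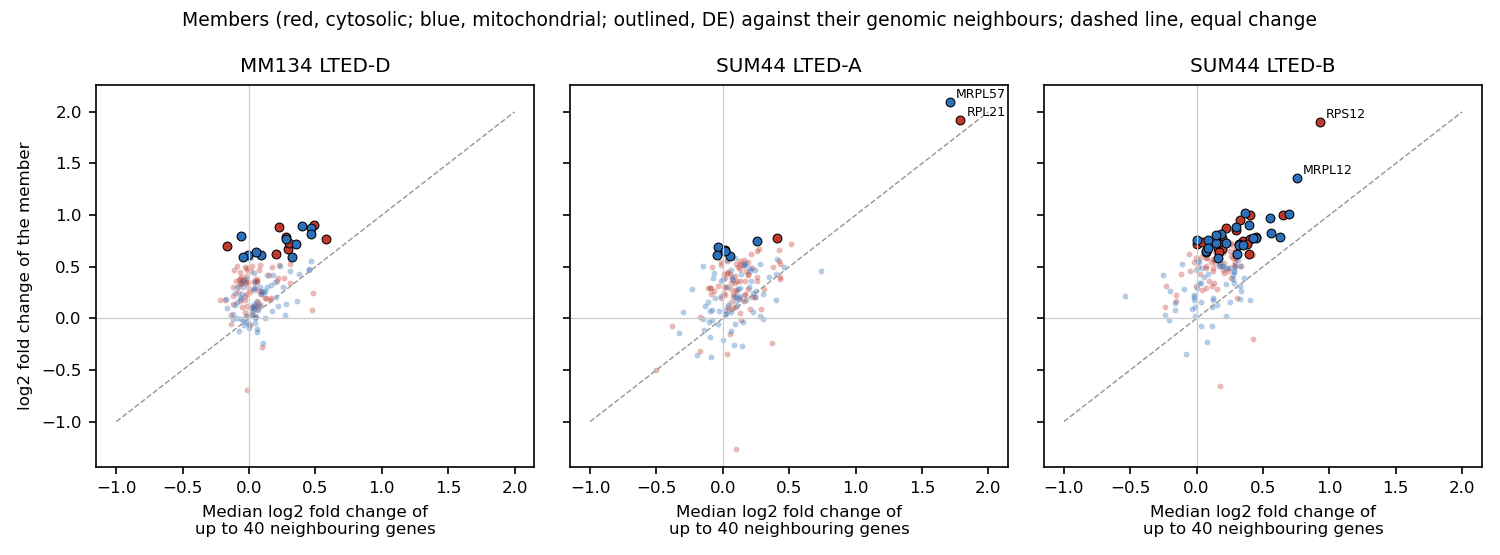
Log2 fold change of each member (y axis) against the median of up to 40 neighbouring genes (x axis) in MM134 LTED-D and in both SUM44 variants; the dashed line marks equal change and read-through genes are left out. RPL21 and MRPL57 stand at the right in SUM44 LTED-A, at neighbour medians of 1.79 and 1.71, while most members lie above a neighbour median near 0.

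The 4 MM134 variants differed from each other in few members by the thresholds used. An F-test among the variants with a largest minus smallest log2 mean above 1.5-fold called 5 cytosolic (5.75%) and 5 mitochondrial members (6.41%), with 19.6% of all genes called. RPS12 differed by 0.78, and RPLP1, described with the stalk, by 0.71. RPL3, a large subunit protein near the peptidyl transferase centre, had log2 values against parental cells of 0.18, 0.52, 0.12 and -0.11 in the order LTED-A, -B, -D and -E, and RPL10, which joins the large subunit late in its maturation, 0.34, 0.63, 0.20 and 0.02. Both were highest in LTED-B. RPS15A had 0.19, 0.37, 0.77 and 0.06, with a neighbour median of 0.58 in LTED-D. Among the mitochondrial members, MRPS34 (0.20, 0.18, 0.88 and 0.02), MRPS33 (-0.33, -0.13, 0.43 and -0.18), MRPL28 (0.15, -0.24, 0.48 and -0.08) and MRPL51 (0.27, 0.19, 0.81 and 0.47) were highest in LTED-D, where their neighbour medians were 0.47, 0.38, 0.45 and 0.47. MRPL13 was instead highest in LTED-E and LTED-A (0.70, 0.09, 0.50 and 0.82), with neighbour medians of 0.06 to 0.24. All 10 had edgeR adjusted p of 1.6e-08 or smaller.

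SUM44 LTED-A and LTED-B differed in 5 cytosolic members, 1 higher in LTED-A (3.56% of all genes) and 4 lower (3.86% of all genes), and in 8 mitochondrial members, 1 higher and 7 lower. Over all members the medians of LTED-A minus LTED-B were -0.23 (cytosolic) and -0.19 (mitochondrial), and 0.01 over all genes. RPL21 and MRPL57 were the higher ones. RPS12 (-1.98 ± 0.16, neighbours -1.46), RPS7 (-1.13 ± 0.11, neighbours -0.92), RPL31 (-1.10 ± 0.16, neighbours -0.27) and RPL36AL (-0.69 ± 0.10, neighbours -0.03) were the lower cytosolic ones, with edgeR adjusted p of 1.08e-05 to 0.000618. RPS7, a small subunit protein that can bind MDM2, had a log2 fold change of -0.50 against SUM44F in LTED-A (adjusted p 0.00336) and 0.62 in LTED-B (adjusted p 0.000291). The lower mitochondrial ones were MRPL54, MRPL27, MRPL58, MRPS23, MRPL35, MRPL30 and MRPS28, by 0.64 to 0.88. The count of 5 became 3 without SUM44F replicate 2, LTED-A replicate 1 or any LTED-B replicate and 8 without the mean of LTED-A replicates 2 and 3, and the count of 8 became 2 without SUM44F replicate 2 or any LTED-B replicate and 1 without LTED-A replicate 1.

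The mean LTED change differed between the cell lines in 2 cytosolic and 3 mitochondrial members, all with the larger mean change in SUM44. The interaction subtracts the mean change of the 2 SUM44 variants from that of the 4 MM134 variants, and called 10.9% of all genes upward, 10.1% downward and 0 members upward. It was -1.04 ± 0.10 for RPL21 (edgeR adjusted p 5.27e-09, neighbours -1.08) and -1.56 ± 0.07 for MRPL57 (adjusted p 1.45e-15, neighbours -0.92), the pair on chromosome 13. LTED-A minus LTED-B was 1.64 and 1.51 for this pair, so that its mean change in SUM44 came mainly from LTED-A. RPS21, a small subunit protein, had log2 fold changes of 0.12, 0.12, 0.14 and 0.04 in MM134 and 0.72 and 0.75 in SUM44, a difference of -0.63 ± 0.11 (adjusted p 4.25e-05, neighbours -0.48). By itself RPS21 was DE in neither SUM44 variant. MRPL48 had -0.16, -0.19, -0.03 and 0.33 in MM134 and differed by -0.69 ± 0.07 (adjusted p 1.17e-08, neighbours -0.28), and MRPL27 differed by -0.66 ± 0.06 (adjusted p 2.53e-09, neighbours -0.31). MRPL27 was upregulated in SUM44 LTED-B and not in LTED-A, with LTED-A minus LTED-B at -0.82. Medians of the interaction were -0.15 over cytosolic and -0.12 over mitochondrial members, and 0.07 over all genes. The 2 cytosolic members became 1 without SUM44F replicate 3. The 3 mitochondrial members became 7 without MM134 parental replicate 1 or 2 or SUM44F replicate 1, 6 without SUM44F replicate 2, and 10 without SUM44 LTED-A replicate 1.

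Between the SUM44 parental cultures, the medians of the 2 ribosomes differed in opposite directions. In SUM44PE minus SUM44F, 76 of 87 cytosolic members lay above 0 with a median log2 difference of 0.22, and 57 of 78 mitochondrial members lay below 0 with a median of -0.10. Of all genes tested, 47.6% lay above 0. At an adjusted p under 0.05, 19 cytosolic members were higher and 0 lower in SUM44PE, and 6 mitochondrial members were higher and 14 lower, where 10.7% of all genes were higher and 12.4% lower. By the DE thresholds 1 cytosolic member was higher (2.85% of all genes), 0 were lower (2.72%), and 0 mitochondrial members passed. That member was RPL34, with 240, 261 and 249 CPM in SUM44PE and 168, 166 and 131 in SUM44F, a difference of 0.68 ± 0.11 (edgeR adjusted p 0.000599) without overlap. RPL34 lost the call without SUM44F replicate 2 or 3, SUM44PE replicate 2 or 3, or SUM44 LTED-B replicate 1 or 3, and 3 members were called without SUM44 LTED-A replicate 1. RPLP1 also differed, by 0.56 ± 0.10 (adjusted p 0.000869), under the fold threshold. SUM44PE was not the culture the variants came from, and against it the cytosolic share of SUM44 LTED-A was not separated.

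At the DE thresholds, MM134 parental cells and SUM44F differed in more members than LTED and parental cells did in any variant. At an adjusted p under 0.05 this did not hold (67 cytosolic members here, with 31.5% of all genes higher and 33.6% lower). By the DE thresholds 20 cytosolic members were higher in MM134 (23.0%, with 19.1% of all genes) and 6 lower (6.90%, with 19.0%). Of the mitochondrial members 24 (30.8%) were higher and 8 (10.3%) lower. The medians were 0.19 and 0.22, and -0.08 over all genes. Higher in MM134 were RPL22L1 (7.9 to 9.1 against 3.4 to 4.0 CPM, log2 difference 1.25 ± 0.12), RPL38 (349 to 386 against 137 to 181 CPM, 1.18 ± 0.07) and RPL35 (1.16 ± 0.06). Lower were RPS26 (71.7 to 73.8 against 165 to 203 CPM, -1.37 ± 0.08), RPL14 (238 to 249 against 496 to 596 CPM, -1.21 ± 0.07) and RPS12 (-1.05 ± 0.08). None of these overlapped, and edgeR adjusted p ranged from 3.75e-14 to 1.74e-09. Among mitochondrial members, MRPL54, MRPL47 and MRPL50 were higher in MM134 by 1.18, 1.16 and 1.14, and MRPL33 and MRPS21 lower by differences of -1.06 and -1.03. MRPL23, a large subunit protein, had the largest difference among the mitochondrial members with 3.43 to 4.10 CPM in MM134 and 23.3 to 26.2 in SUM44F (-2.71 ± 0.10, adjusted p 1e-17) and a neighbour median of -0.08. For RPL14 the neighbours had a median of -1.16 and for MRPL33 -1.21, while for RPS26 they had -0.21. In all, 18 of 26 cytosolic and 21 of 32 mitochondrial members had neighbour medians of at least 50% of their own difference. The same share over all DE genes was not computed. Cell line and culture history cannot be told apart here.

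Genes that build the cytosolic ribosome were looked at beside its proteins. The counts of these lists stand against 10.5%, 8.11%, 9.63% and 8.71% of all genes upregulated in MM134 LTED-A, -B, -D and -E and 6.39% and 8.69% in SUM44 LTED-A and LTED-B. Of 40 assembly factors 5, 0, 6 and 3 were upregulated in MM134 LTED-A, -B, -D and -E and 9 and 23 in SUM44 LTED-A and LTED-B, and 0 downregulated in each, with medians of 0.34, 0.07, 0.34 and 0.32 and of 0.48 and 0.66. LTED-B of MM134, which had the largest cytosolic share of its cell line, thus had the lowest median in the list of assembly factors. NOP2, a methyltransferase of 28S rRNA, had log2 fold changes of 0.62, 0.34, 0.88 and 0.79 in MM134 and 0.73 and 0.90 in SUM44, and RRS1 0.93, 0.39, 0.84 and 1.03 in MM134. In SUM44, TCOF1 and NOLC1, nucleolar proteins that act with RNA polymerase I, had 0.77 and 1.10, and 0.81 and 0.89. Of 14 genes of RNA polymerase I and its factors, 1, 0, 3 and 1 were upregulated in MM134 and 2 and 2 in SUM44, TAF1A in MM134 (1.19, 0.48, 0.64 and 0.74) and POLR1G in SUM44 (1.03 and 0.96) among them, and 1 was downregulated in each of MM134 LTED-A and LTED-B. In a list of 16 translation factors and other genes with TOP mRNAs, 2, 2, 1 and 1 were upregulated in MM134 and 1 and 1 in SUM44, with medians of 0.06, 0.18, 0.08 and -0.10 and of 0.17 and 0.29. EEF1D (0.80, 0.94, 0.54 and 0.80) and EEF1G (0.75, 0.94, 0.69 and 0.53), subunits of the elongation factor complex that recharges eEF1A, were the shared ones in MM134, and EEF1B2 (0.80 and 0.76), another subunit of that complex, in SUM44, where VIM, the intermediate filament gene of the list, was downregulated in both variants. Cytosolic ribosomal proteins with other names changed in the same range, with 0 of 4 upregulated except 2 in SUM44 LTED-B, and RPSA had 0.54, 0.57, 0.47 and 0.47 in MM134 and 0.67 and 0.94 in SUM44.

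For the mitochondrial ribosome, 28 assembly factors were tested. In MM134 4, 1, 2 and 3 were upregulated and in SUM44 1 and 2, beside the shares of all genes given above, and 1 was downregulated in SUM44 LTED-A. The medians were 0.12, 0.06, 0.21 and 0.09 and of 0.19 and 0.28. METTL15, a methyltransferase of the mitochondrial small rRNA, had log2 fold changes of 0.82, 1.12, 1.05 and 0.99 in the MM134 variants. LONP1, a protease of the mitochondrial matrix, had 0.75, 0.19, 0.64 and 0.59 in MM134 and 0.78 and 1.05 in SUM44. Of 15 mitochondrial translation factors 0, 0, 3 and 0 were upregulated in MM134 and 1 and 1 in SUM44. The 8 tested mitochondrial ribosomal proteins with other names had 3, 0, 0 and 1 upregulated members in MM134, 1 and 3 in SUM44 and 1 downregulated in SUM44 LTED-B, with GADD45GIP1 (0.79 and 0.92) shared by both SUM44 variants.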

How the data were processed

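The authors prepared stranded total RNA libraries from 27 wells (9 groups of 3) and quantified them with Salmon 0.6.0 on hg38 with the annotation of Ensembl 82. Neither trimming nor the strand setting is given in the sources used here. The deposited values are estimated counts for 60619 genes, not normalized for depth or length, and how reads shared by a gene and its pseudogenes (1513 for 76 members) were divided depends on that estimate. Symbols and positions came from GENCODE v44 on hg38, which held 56434 of the IDs, and start sites from RefSeq on GRCh38.p14.

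In R 4.3.3, rounded counts that passed filterByExpr were scaled by TMM and tested two-sided by the quasi-likelihood method of edgeR 4.0.16, with p adjusted by Benjamini-Hochberg over all genes of the fit. MM134 (26061 genes), SUM44F with its variants (26834), the same with SUM44PE (27457) and all groups (29608) were fitted separately, the last for the interaction and for MM134 against SUM44F. DE means a change above 1.5-fold at adjusted p under 0.001. The interaction is a difference of mean log2 fold changes. Sums and ratios over members, levels per length and neighbour medians have no test. The procedure was also run on simulated counts, for MM134 LTED-A and SUM44 LTED-A only, and the outcome is not given here. Depth was 28583554 to 134882175 counts per library (median 44018412), and a library with fewer counts gives less precise values for the low members.

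Members and gene lists were chosen with earlier results of these data known. The text names the 3 members that changed most in each shared set and contrast by their least changed variant, the stalk proteins, the paralogs, the read-through genes, the extremes of level, and up to 2 genes per list and cell line; other names in sets of 5 or fewer, and SLC18B1, were added after their values were seen.

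Alternatives were RLE size factors, TMM on protein-coding genes, no filter, DESeq2 1.42.0, a replicate block, each library left out, replicates 2 and 3 of SUM44 LTED-A kept separate, other thresholds, and a mean of log2 values in place of the sum for the ratio. MANE Select lengths were added after seeing the data. Tables and figures were made with Python 3.11.15, pandas 2.3.3, numpy 2.4.6 and matplotlib 3.10.9. The microarray and qPCR data of the study were not used here, and values of a few genes are left out.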

Additional observations from a re-analysis of the deposited data

Results flagged for a closer look

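The LTED change differed between MM134 and SUM44 in 5 members by the interaction term (edgeR quasi-likelihood, log2, MM134 minus SUM44): -1.04 for RPL21, -0.63 for RPS21, -1.56 for MRPL57, -0.69 for MRPL48 and -0.66 for MRPL27, with adjusted p from 1.45e-15 to 4.25e-05. In each case the mean change was larger in SUM44, but for RPL21 and MRPL57 that mean came mainly from LTED-A. MRPL27 was upregulated only in SUM44 LTED-B, and RPS21 was DE in neither SUM44 variant.

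The 4 MM134 variants differed from each other by an F-test among them in 10 members. The largest minus the smallest log2 mean was 0.78 for RPS12 (highest in LTED-E), 0.71 for RPLP1, 0.62 for RPL3 and 0.61 for RPL10 (all 3 highest in LTED-B), and 0.70 for RPS15A, 0.85 for MRPS34, 0.76 for MRPS33, 0.72 for MRPL28 and 0.62 for MRPL51 (all 5 highest in LTED-D). MRPL13 differed by 0.74 and was highest in LTED-E.

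SUM44 LTED-A and LTED-B differed in 13 members (LTED-A minus LTED-B, log2). RPL21 (1.64) and MRPL57 (1.51), both on chromosome 13, were higher in LTED-A. RPS12 (-1.98), RPS7 (-1.13), RPL31 (-1.10) and RPL36AL (-0.69) were lower, as were MRPL54 (-0.88), MRPL27 (-0.82), MRPL58 (-0.81), MRPS23 (-0.67), MRPL35 (-0.67), MRPL30 (-0.64) and MRPS28 (-0.64). Their edgeR adjusted p ranged from 7.4e-07 to 0.000733. Which of these changes go with the number of gene copies was not tested.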

How the results depend on the processing

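The medians of both ribosomes stayed above 0 in each LTED variant under all alternatives run, whereas counts of DE members moved with the thresholds and, in SUM44, with single libraries and the scaling. Wells are not separate derivations, and low members (RPL3L, RPL39L, RPL10L) have too few counts for small changes to be detected.

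Counts are given as cytosolic and mitochondrial. With an adjusted p under 0.05 and no minimum fold, members in at least 3 MM134 variants went from 3 and 4 to 71 and 48, in both SUM44 variants from 2 and 5 to 34 and 25, in SUM44PE against SUM44F from 1 and 0 to 19 and 20, in MM134 against SUM44F from 26 and 32 to 67 and 69, for the interaction from 2 and 3 to 34 and 37, among the MM134 variants from 5 and 5 to 75 and 68, and between the SUM44 variants from 5 and 8 to 18 and 30. Of all genes tested, 10.7% were then higher and 12.4% lower for SUM44PE, and 31.5% and 33.6% for MM134 against SUM44F. For the interaction 22.8% were higher and 22.4% lower, and for SUM44 LTED-A minus LTED-B 11.2% and 13%. Among the MM134 variants 60.3% of all genes were called, and 12.4% were higher in both SUM44 variants. In all 4 MM134 variants 13.8% of all genes were higher, and the share for at least 3 is not given. Shares of all genes are also not given for the 2-fold counts and the alternative runs below. With more than 2-fold the counts of members were 0 and 0 in MM134, 0 and 0 in SUM44, 0 cytosolic for SUM44PE, 6 and 10 for MM134 against SUM44F, 1 and 1 for the interaction, and 0 and 0 among the MM134 variants. Between the SUM44 variants, the cytosolic members RPL21 (1.64), RPS12 (-1.98), RPS7 (-1.13) and RPL31 (-1.10) passed 2-fold, with 1 mitochondrial member. With RLE size factors, 1 cytosolic member was shared by both SUM44 variants, 0 differed for SUM44PE, 8 mitochondrial members were called for the interaction, and 3 and 4 between the SUM44 variants. TMM on protein-coding genes gave 3 mitochondrial members in both SUM44 variants and 3 cytosolic ones for SUM44PE. Without a filter there were 9 cytosolic members in both SUM44 variants, 2 for SUM44PE and 5 mitochondrial ones for the interaction. DESeq2 gave 10 and 8 in both SUM44 variants and 8 mitochondrial for the interaction. With replicates 2 and 3 of SUM44 LTED-A kept separate the counts were 7 and 8 in both SUM44 variants and 8 mitochondrial for the interaction. With a mean of log2 values, the difference in the mitochondrial to cytosolic ratio was -0.035 in MM134 LTED-A and -0.28 in LTED-B.

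Same-numbered samples had correlations of deviations of -0.11 to 0.08 over 30 pairs in MM134 and -0.07 to 0.18 over 7 pairs in SUM44. Pairs with different numbers had -0.15 to 0.14 and -0.13 to 0.13. No clear pairing by number was seen, but the SUM44 pairs are few, and a shared batch was not tested. A replicate block gave 0 and 1 members in both SUM44 variants and 3 and 2 between the SUM44 variants, and left the MM134 counts at 5, 12, 8 and 3 (cytosolic) and 12, 2, 11 and 6 (mitochondrial).

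With each library left out, the ranges were 3 to 4 and 4 to 4 in MM134, 0 to 4 and 1 to 6 in SUM44, 0 to 3 cytosolic for SUM44PE, 23 to 31 and 28 to 36 for MM134 against SUM44F, 1 to 2 and 3 to 10 for the interaction, 4 to 6 and 4 to 6 among the MM134 variants, and 3 to 8 and 1 to 10 between the SUM44 variants. Without the mean of LTED-A replicates 2 and 3, members in both SUM44 variants were 0 and 1, and 8 cytosolic members differed between these variants. For the ratio, MM134 LTED-A ranged from -0.11 to -0.08, LTED-B from -0.38 to -0.35, LTED-D from -0.08 to -0.05 and LTED-E from 0.01 to 0.04, and SUM44 LTED-A from -0.13 to -0.02 and LTED-B from -0.21 to -0.10.

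Named values turned sign for RPLP1, RPL22, RPL26L1, RPL26, RPL36AL, RPS27L and RPS27. RPL22 in MM134 LTED-D was -0.00063 with TMM on protein-coding genes. RPL26 in LTED-E was -0.0066 with RLE, -0.0071 with TMM on protein-coding genes, -0.0036 without a filter, -0.0065 with DESeq2 and -0.0060 to 0.014 with a library left out. RPL26L1 in SUM44 LTED-A was 0.021 with RLE, 0.025 with DESeq2, 0.028 with replicates separate, and -0.066 to 0.099 with a library left out (-0.095 without the mean of replicates 2 and 3). The same ranges were -0.0058 to 0.054 for RPLP1 in LTED-E, -0.18 to 0.046 for RPL36AL in SUM44 LTED-A (-0.34 without the mean of replicates 2 and 3) and -0.082 to 0.013 for RPS27L in MM134 LTED-B, and RPS27 in SUM44 LTED-A was -0.070 without the mean of replicates 2 and 3. The cause was not tested.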

Other observations

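Of the 13 mRNAs that the mitochondrial ribosome translates, all encoded by mitochondrial DNA, 5, 6, 10 and 5 were upregulated in MM134 LTED-A, -B, -D and -E and 0 in either SUM44 variant, where 6.39% to 10.5% of all genes were upregulated, with medians of the log2 fold change of 0.47, 0.58, 0.72 and 0.40 in MM134 and 0.85 and -0.16 in SUM44. At an adjusted p under 0.05 in edgeR, 11, 10, 13 and 9 were higher in the MM134 variants, 7 in SUM44 LTED-A and 0 in SUM44 LTED-B, and the interaction between the cell lines called 0 of 13. MT-ATP6, a subunit of ATP synthase, had 0.85, 1.22, 1.26 and 0.83 in the MM134 variants. MM134 parental cells had lower levels than SUM44F for all 13 at an adjusted p under 0.05 in edgeR, with a median of -1.30. In MM134 LTED-B the mitochondrial mRNAs had a median of 0.58 and the mitochondrial ribosomal proteins 0.08.

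Of 27 known regulators of ribosome genes, 4, 4, 5 and 3 were upregulated and 2, 3, 1 and 2 downregulated in the MM134 variants, and 3 were upregulated and 2 downregulated in each SUM44 variant, where 6.39% to 10.5% of all genes were upregulated and 7.28% to 10.3% downregulated. MYC was downregulated in all 4 MM134 variants (log2 fold changes of -2.71, -3.86, -3.69 and -6.12) and MYCN upregulated (3.60, 2.86, 3.44 and 3.47). EIF4EBP1, which encodes the mTOR target that holds back cap-dependent translation, was upregulated in all 6 variants, by 0.86, 0.64, 0.74 and 0.69 in MM134 and by 1.89 and 2.07 in SUM44, and RPS6KB2, a kinase of ribosomal protein S6, in MM134 (0.74, 0.60, 0.59 and 0.60). In SUM44, MYCN had 0.70 and 0.70 and was upregulated in both variants. PPARGC1A (-0.88 and -1.73) and PPARGC1B (-2.38 and -3.53), coactivators of mitochondrial genes, were downregulated there, while the mitochondrial ribosomal proteins had medians of 0.22 and 0.44. Of 12 hosts of snoRNAs, the RNAs that guide rRNA modification, 2, 1, 2 and 1 were upregulated in MM134 and 3 and 3 in SUM44, beside the same shares of all genes.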
